A study of Mus musculus with 32 samples.

Results

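The 8 genes described here are markers of mast cells: Mrgprb2, Cma1, Mcpt4, Tpsb2, Cpa3, Kit, Ms4a2 and Hdc. They were taken as every array probe that carries 1 of these names. They were selected on measured values of this series, because Mrgprb2 was lower in stressed hearts after 5 days of stress. The length of rest was not part of that reason. It is read here as 1 day, the only condition in which Mrgprb2 passed the threshold used below. The array held 9 probes for them. Of the 8 genes, 7 passed the filter on dim probes and were among the 27583 genes tested, and Ms4a2 did not pass. Heart RNA came from 32 individual C57BL/6 mice, 4 in each of 8 groups, with an array for each mouse. Stressed mice spent 6 hours a day in the cage of an aggressor, with bouts of attack, for 5 days (T5) or 10 days (T10). A rest of 1 day (R1), 10 days (R10) or 42 days (R42) followed. Control mice sat in the same kind of mesh box in a large cage that held no aggressor. The groups were stressed and control mice of T5R1, T5R10, T10R1 and T10R42, with no genetic modification given in the labels. This exposure is a model of posttraumatic stress disorder, and the RNA was that of heart tissue, in which all cell types are mixed.

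Mast cells are long-lived immune cells of connective tissue that, in the heart, lie along vessels and in the interstitium. They depend on stem cell factor acting through the receptor Kit, and they store histamine and proteases in granules that are released when IgE bound to the high-affinity receptor, or a ligand of Mrgprb2, activates the cell. Their chymases can form angiotensin II and process matrix proteins, which is why they are studied in cardiac remodelling. In whole heart RNA, fewer mast cells and less RNA per mast cell cannot be told apart.

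The probes for the G protein-coupled receptor Mrgprb2, the chymase Cma1 and the dimmer probe for the tryptase Tpsb2 are shown because the results turn on a dim receptor signal, on a protease that varied with Cpa3, and on a gene whose probes disagreed. The letters are the 60-base probe sequences of the scanner files, with no part marked by capitals, and positions are on mm9, as the array design gives them.
Mrgprb2: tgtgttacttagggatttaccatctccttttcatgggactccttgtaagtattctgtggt
Cma1: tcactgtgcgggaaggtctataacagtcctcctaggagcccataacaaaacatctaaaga
Tpsb2: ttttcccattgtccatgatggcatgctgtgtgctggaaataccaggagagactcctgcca
The Mrgprb2 probe lies at chr7:55807084-55807143 on the minus strand. The Cma1 probe covers chr14:56561491-56562550 on the minus strand, a span of 1060 bases that is longer than its 60 letters. The Tpsb2 probe lies at chr17:25504493-25504552 on the plus strand, and the brighter Tpsb2 probe at chr17:25504819-25504878. The other probes lie at chr14:56678589-56678648 for Mcpt4, chr3:20115674-20115733 for Cpa3, chr5:76052394-76052453 for Kit, chr19:11691701-11691760 for Ms4a2 and chr2:126419516-126419575 for Hdc. Whether a position is in an exon or a UTR, and whether related genes such as other Mrgprb or tryptase genes also bind a probe, was not tested.

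Levels are log2 signal relative to the 75th percentile of the array, so that 0 is the level of that percentile, and levels of different probes are not compared. Stress effects are stressed minus control levels, with 4 hearts in each arm. The standard error (SE) is that of limma, which takes 1 spread per gene from all 8 groups. It is therefore not the spread of the hearts of 1 condition. A gene passed when its limma p, adjusted by Benjamini-Hochberg over all genes tested, was below 0.05. The 75th percentile signal ran from 237.2 to 498.9 over the arrays, and 28792 to 40670 probes per array were well above background by the scanner software's own flag. Each condition filled its own slide of 8 arrays, which leaves condition and slide as factors that cannot be told apart. The T10R1 slide was also scanned on a different day from the other slides. On every slide the controls filled the first 2 columns and the stressed mice the last 2, so position on the slide and stress cannot be told apart either. The scanner software marked 3 T5R10 arrays for evaluation, namely control replicate 4 and stressed replicates 1 and 2. As a check of the tissue, the 6 cardiomyocyte markers had a mean level of 8.71 to 9.10 in the stressed hearts of T5R1 and 9.12 to 9.16 in its controls. In T5R1, 1 of these 6 and 1 of 6 atrial markers passed, both lower, with median changes of -0.25 and -0.98, and the part of tissue makeup in the T5R1 differences was not tested.

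In T5R1, the comparison from which the genes were chosen, Mrgprb2 was lower and Kit higher in stressed hearts, while the granule proteases and Hdc, on the probes tested, lay within 0.22 of their controls. The values of this comparison are therefore a description. Of 7 genes tested, 1 was past the threshold in the lower direction, against 8.42% of all genes, and 1 in the higher direction, against 5.29%; in either direction 13.7% of all genes passed. The groups did not overlap for 2 of the 7 genes, Mrgprb2 and Kit, beside 22.3% of all genes tested. The median change of the 7 genes was -0.07, and that of all genes tested was -0.12.

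Mrgprb2 responds to basic peptides and drugs that activate mast cells without IgE. In T5R1 its level in the controls was -5.84, -5.89, -3.96 and -3.51 in replicates 1 to 4. In the stressed hearts it was -6.13, -7.44, -6.14 and -7.14. Control replicates 3 and 4 were high, and replicates 1 and 2 lay just above the highest stressed heart. Stressed minus control was -1.91 ± 0.41, with the SE taken from all 8 groups. Within T5R1 the SD of the 4 hearts was 1.244 in controls and 0.678 in stressed hearts. The probe was well above background in 1 of the 4 controls and in none of the 4 stressed hearts, so no fold is given for a signal that on most arrays had only a bound. With only the T5R1 arrays in the fit the difference was no longer past the threshold. The difference was -0.53 with another background correction (normexp) and -0.44 in the authors' deposited value table, whose signals had no background subtracted. Both high controls sat in the first slide column and both lower ones in the second, and the part of slide position in this difference was not tested.

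Over the whole series, Mrgprb2 was well above background on 9 of 32 arrays and passed the filter through the T5R10 controls, the only group with at least 3 such arrays. Its processed signal ran from 1.82 to 38.2. The lowest level of any probe well above background ran from -5.58 to -3.66 over the arrays, and Mrgprb2 ran from -7.65 to -3.48. Of 902 genes tested that were well above background on no more than 9 arrays, 2.44% were past the threshold lower in T5R1 and 3.44% higher, with a median change of -0.28.

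**Figure D1:**
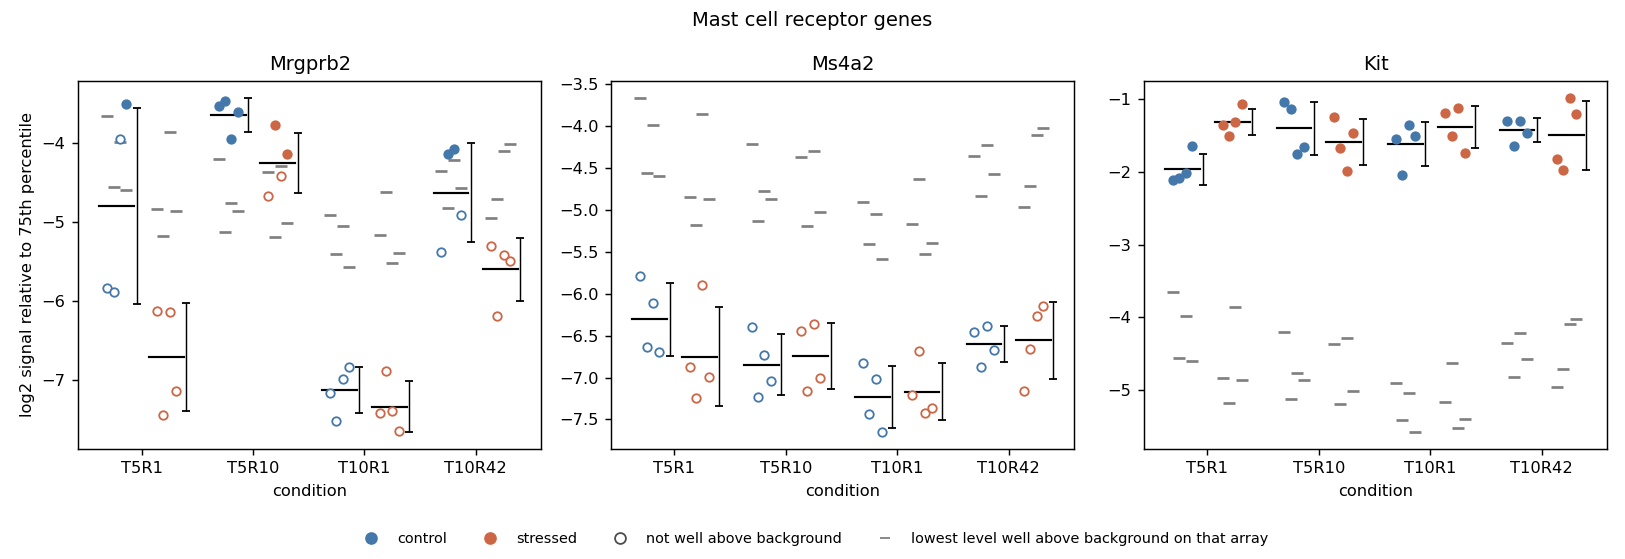
Level of the receptor genes Mrgprb2, Ms4a2 and Kit in each heart, as log2 signal relative to the 75th percentile of the array, by condition and arm; lines are group means, bars the SD of 4 hearts, open points arrays where the probe was not well above background, and grey dashes the lowest level of any probe well above background on that array. Mrgprb2 has 9 filled points of 32, Ms4a2 has none, and Kit is filled throughout, with the stressed hearts of T5R1 at -1.50 to -1.07 above their controls at -2.11 to -1.65.

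In T10R1 and T10R42, no stress effect on Mrgprb2 passed the threshold, and its T5R10 values are given as a description. In T5R10, with the same exposure and a longer rest, the controls had levels of -3.54, -3.48, -3.96 and -3.61 and the stressed hearts -4.67, -3.78, -4.42 and -4.15. Only stressed replicate 2 reached into the range of the controls, and the probe was well above background in 4 of 4 controls and 2 of 4 stressed hearts. The difference was -0.61 ± 0.41, with a 95% interval of -1.45 to 0.24 and a limma adjusted p of 0.522. The probe had passed the filter only through these T5R10 controls, which favours high control values. This difference is therefore a description, and its p is not read as a test. In T10R1 the receptor was at -7.52 to -6.84 in controls and -7.65 to -6.89 in stressed hearts. It was well above background on none of those 8 arrays, and the difference of -0.21 (limma adjusted p = 0.876) lay between signals that were both not well above background.

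In T10R42 the Mrgprb2 level was -5.38, -4.15, -4.08 and -4.92 in controls and -5.31, -6.19, -5.42 and -5.50 in stressed hearts. Control replicate 1 was as low as the stressed hearts and the other 3 controls were higher. The difference of -0.97 ± 0.41 had a 95% interval of -1.81 to -0.12 and an unadjusted p of 0.0265 by limma, but its adjusted p was 0.199. Over 17 other settings the difference ran from -1.22 to -0.15, smallest in the authors' deposited value table, and none passed. The probe was well above background in 2 of 4 controls and in no stressed heart. The stress effect in T10R42 minus that in T10R1 was -0.76 ± 0.58 (limma adjusted p = 0.452). The groups with at least 2 arrays well above background had mean levels of -4.63 (T10R42 control), -4.26 (T5R10 stressed) and -3.65 (T5R10 control). Neighbours in this order overlapped, and a step between conditions is also a step between slides. The other 5 groups had at most 1 such array and are given no order.

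Ms4a2 encodes the beta chain of the high-affinity IgE receptor, which amplifies its signal. Its probe was well above background on 0 of 32 arrays and it was not tested. Its levels ran from -7.65 to -5.79, all below the floor of -5.58 to -3.66 given above. Stressed and control hearts overlapped in every condition, and no fold is given because neither arm was well above background. Fcer1a, the alpha chain that binds IgE, was also dim, well above background on 5 arrays, and was not tested.

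Kit, the stem cell factor receptor, is carried by mast cells and also by melanocytes and progenitor cells. Its probe was well above background on all 32 arrays. In T5R1 the controls had levels of -2.11, -2.08, -2.02 and -1.65 and the stressed hearts -1.35, -1.50, -1.32 and -1.07. Every stressed heart was above every control, and the difference was 0.65 ± 0.21, opposite in sign to that of Mrgprb2. It kept its sign in 18 other settings, at 0.38 to 0.76, but was past the threshold in 10 of them. Leaving out control replicate 1, 2 or 3 or stressed replicate 1, 3 or 4 ended the call, at differences of 0.57 to 0.66, as did normexp (0.38) and no filter on dim probes (0.65).

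In the other conditions the arms overlapped for Kit. The differences were -0.19 in T5R10 (95% interval -0.62 to 0.24, limma adjusted p = 0.711), 0.23 in T10R1 (-0.20 to 0.66, adjusted p = 0.696) and -0.07 in T10R42 (-0.50 to 0.36, adjusted p = 0.902). Kitl, which encodes the stem cell factor that binds Kit, had differences of -0.29, -0.23, 0.02 and -0.05 in T5R1, T5R10, T10R1 and T10R42. Of 4 melanocyte markers tested in T5R1, none was past the threshold higher and 1 was lower, and their mean level was -1.37 to -0.89 in stressed hearts and -0.56 to -0.46 in controls. The 6 endothelial markers had a median change of -0.06 and none passed, at mean levels of 1.46 to 1.82 in stressed hearts and 1.62 to 1.79 in controls.

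The granule genes gave clear signals in these hearts: Cma1, Mcpt4, Cpa3, both Tpsb2 probes and Hdc were well above background on all 32 arrays. No stress effect on them passed the threshold in T5R10, T10R1 or T10R42. In these 3 conditions 0 of the 7 genes tested passed, with the T5R10 value of Mrgprb2 counted as a description and not as a test. Over all genes 0.0761% passed in T5R10 (0.0218% higher and 0.0544% lower), 1.13% in T10R1 (0.776% higher and 0.359% lower) and 0.899% in T10R42 (0.29% higher and 0.609% lower). A count of 0 among 7 genes does not stand apart from these shares. At an unadjusted p below 0.05 by limma there was none in T5R10, 1 in T10R1 (Cma1, higher) and 1 in T10R42 (Mrgprb2, lower). The median change of the 7 genes was -0.14, 0.09 and -0.07, beside -0.02, 0.00 and -0.03 for all genes tested, and stressed and control hearts overlapped for all 7 in these conditions. Over all genes tested the arms did not overlap for 5.84% in T5R10, 9.78% in T10R1 and 11.4% in T10R42, shares at which 0 of 7 does not stand apart.

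Mcpt4 encodes a chymase of connective tissue mast cells. Its level in T5R10 was 0.37, 0.13, -0.15 and -0.20 in controls and 0.00, 0.10, 0.04 and -0.08 in stressed hearts. In T10R1 it was 0.01, 0.12, -0.04 and 0.00 in controls and -0.23, -0.19, 0.10 and -0.16 in stressed hearts. The arms overlapped in both. Its differences were -0.04 ± 0.15 in T5R1, -0.02 in T5R10 (95% interval -0.32 to 0.28, limma adjusted p = 0.962), -0.14 in T10R1 (-0.44 to 0.16, adjusted p = 0.736) and 0.10 in T10R42 (-0.20 to 0.40, adjusted p = 0.769). No interval reached beyond 0.44 on the log2 scale in either direction.

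Cma1 encodes the mouse alpha-chymase. In T10R1 its level was -3.45, -3.54, -4.07 and -3.28 in controls and -3.64, -2.88, -3.28 and -2.99 in stressed hearts. Control replicate 3 was low, stressed replicate 1 lay among the controls, and the other 3 stressed hearts were at or above the highest control. The difference of 0.39 ± 0.18 had a 95% interval of 0.02 to 0.75 and an adjusted p of 0.346 by limma, and over 18 other settings it ran from 0.09 to 0.54 with none past the threshold. In T5R1, T5R10 and T10R42 the differences were -0.07 ± 0.18, 0.01 (limma adjusted p = 0.98) and -0.08 (adjusted p = 0.861). The stress effect in T10R42 minus that in T10R1 was -0.46 ± 0.25 for Cma1, with a limma adjusted p of 0.267, and 0 of the 7 mast cell genes passed for that difference, against 4.14% of all genes (1.9% higher and 2.24% lower). At an unadjusted p below 0.05 by limma there was none among the 7.

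Cpa3 encodes carboxypeptidase A3, an enzyme stored with the chymases. Its level was -1.85 to -2.25 in T5R10 controls and -2.58 to -1.88 in stressed hearts, and in T10R42 it was -2.67 to -2.33 and -2.87 to -2.10. The stressed hearts spread more widely than the controls in both conditions and overlapped them. The differences were 0.13 ± 0.17 in T5R1, -0.10 in T5R10 (95% interval -0.44 to 0.25, limma adjusted p = 0.824), 0.09 in T10R1 (-0.26 to 0.43, adjusted p = 0.875) and 0.09 in T10R42 (-0.26 to 0.43, adjusted p = 0.833).

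Tpsb2 encodes a tryptase, the trypsin-like protease of mast cell granules, and its 2 probes gave different pictures. The brighter probe was used in the test and had differences of -0.15 ± 0.30 in T5R1, -0.34 in T5R10 (limma adjusted p = 0.64), 0.14 in T10R1 (adjusted p = 0.885) and -0.09 in T10R42 (adjusted p = 0.909). The dimmer probe had -0.28, -0.09, -0.15 and 0.18 in the same order. The probes had opposite signs in T10R1 and T10R42, but there the brighter probe's differences were smaller than its SE of 0.30. Those of the dimmer probe did not pass either (limma over probes, adjusted p = 0.738 and 0.553), so the signs alone do not separate the probes. On the brighter probe, T10R1 controls were at 1.22, -0.58, -0.39 and -0.23, with replicate 1 far above the others, and without that heart the T10R1 difference was 0.55 (limma adjusted p = 0.382). On the dimmer probe the same hearts were at -2.77, -3.07, -2.44 and -2.73, with replicate 1 in the middle.

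Hdc encodes histidine decarboxylase, which makes histamine. In T10R1 its level was -0.80, -0.56, 0.00 and -0.43 in controls and -0.84, -0.92, -0.63 and -0.47 in stressed hearts. Every stressed heart lay below the mean of the controls, but the arms overlapped, and the difference of -0.27 (95% interval -0.61 to 0.07) had a limma adjusted p of 0.521. The other differences were -0.22 ± 0.17 in T5R1, -0.14 in T5R10 (limma adjusted p = 0.741) and -0.01 in T10R42 (adjusted p = 0.987).

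**Figure D2:**
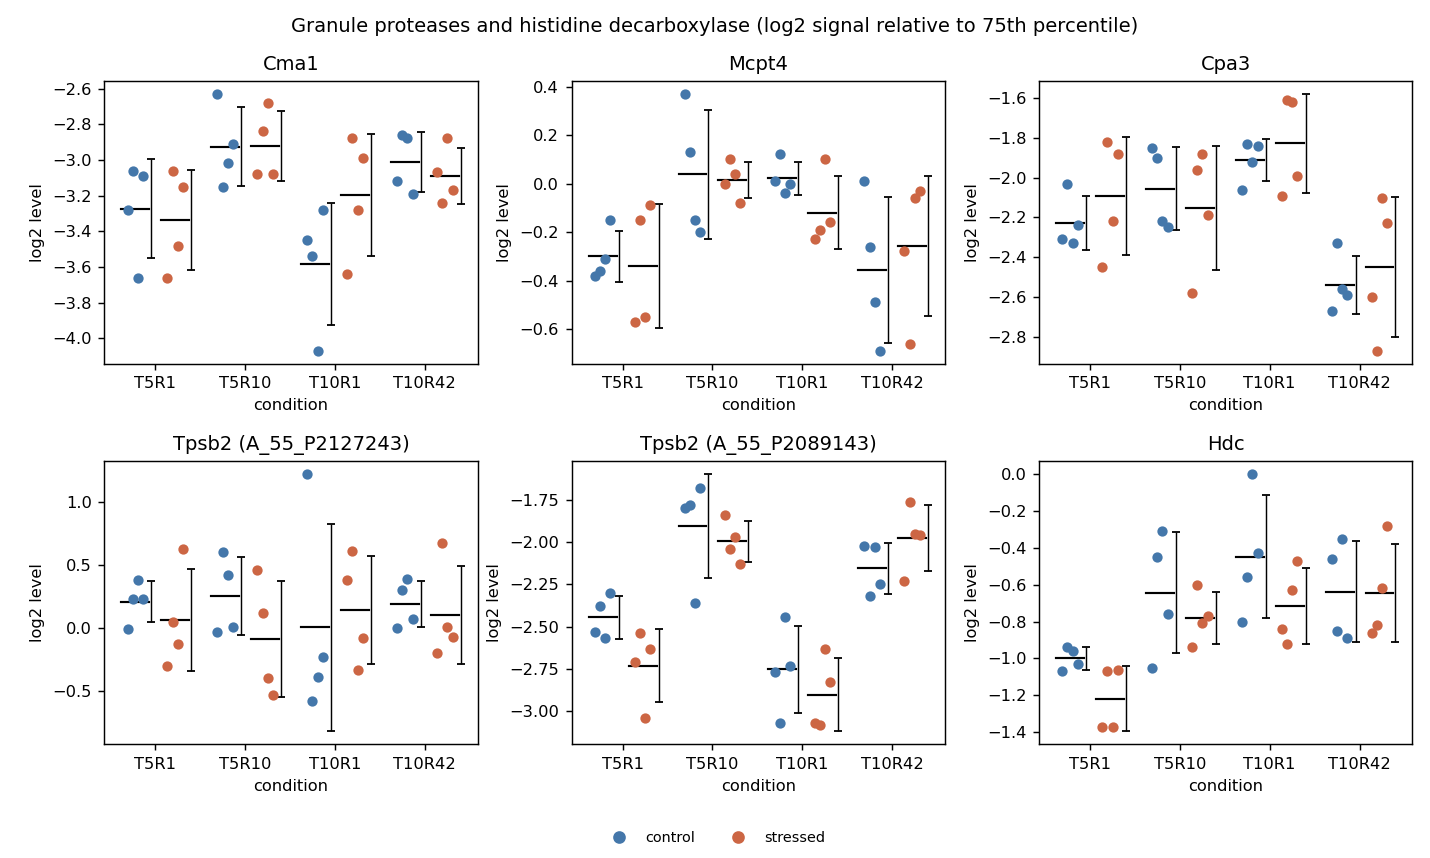
Level of the granule proteases and Hdc in each heart, as log2 signal relative to the 75th percentile of the array, by condition and arm; lines are group means and bars the SD of 4 hearts, and each panel has its own scale. Stressed and control hearts overlap in all panels, and the Tpsb2 panels differ most in T10R1 control replicate 1, which is at 1.22 on the brighter probe.

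**Figure D3:**
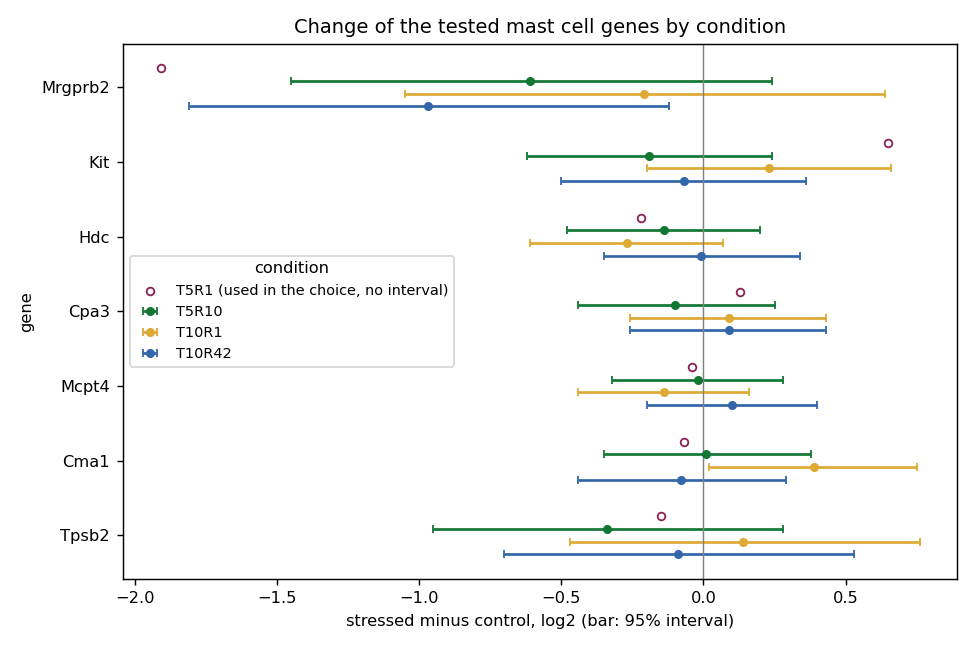
Stressed minus control level (log2) of the 7 tested genes in each condition, with 95% intervals from limma; T5R1, from which the genes were chosen, is drawn as open points with no interval. Mrgprb2, which was not well above background on most arrays, has the widest intervals, from -1.45 to 0.24 in T5R10. That T5R10 interval is a description, because the probe passed the filter only through the T5R10 controls. The intervals of Mcpt4 stay within 0.44 of 0.

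Although stress moved none of the granule genes past the threshold, they varied between hearts of a group, and some varied together. Over the 32 hearts, as deviations from the group means, Cpa3 correlated with Mcpt4 (Pearson r = 0.62, Spearman rho = 0.62) and with Cma1 (r = 0.56, rho = 0.58). Permuting hearts within groups 100000 times gave adjusted p of 0.0223 for both r and 0.0321 for both rho over the 28 pairs of 8 probes. Without the 2 hearts farthest from the median of Mcpt4, its r with Cpa3 was 0.67. Without the 2 farthest from the median of Cma1, its r with Cpa3 was 0.58. These were the only pairs past the threshold. Of the 28 pairs, 18 had a positive r and the median r was 0.07. All values of a heart come from 1 array and share its scaling.

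Within the 8 hearts of each slide, Cpa3 and Mcpt4 had an r of 0.78 in T5R1, 0.61 in T5R10, 0.55 in T10R1 and 0.59 in T10R42. Cpa3 and Cma1 had 0.85, 0.58, 0.37 and 0.65. Both were positive on every slide. In T5R1 stressed hearts both Cpa3 (-1.82 and -1.88) and Mcpt4 (-0.15 and -0.09) were higher in slide row 1. In row 2 they were at -2.45 and -2.22 and at -0.57 and -0.55. In T10R1 stressed hearts Cpa3 overlapped between rows and between columns. The permutation took no account of row or column, and the part of slide position in these correlations was not tested. Without the 3 arrays marked for evaluation, the r values were 0.66 and 0.57, both at a permutation adjusted p of 0.0459. The relation lay close to the threshold: leaving out any 1 of T5R1 stressed replicate 1, T5R10 control replicate 1, T10R1 stressed replicate 1 or T10R42 stressed replicates 2 and 3 left no pair past it, with permutation adjusted p of 0.0504 to 0.0658 and r of 0.51 to 0.62. Leaving out T5R10 control replicate 4 or T10R1 stressed replicate 3 left only Cpa3 with Cma1, while Cpa3 with Mcpt4 kept an r of 0.60 at permutation adjusted p of 0.0532 and 0.0504. These leave-one-out p rest on 10000 permutations. At that number the values nearest 0.05 cannot be told from the threshold.

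Cma1 and Mcpt4 correlated at r = 0.36 (permutation adjusted p = 0.258) and Mcpt4 and Kit at 0.48 (permutation adjusted p = 0.161). Mrgprb2 had an r of -0.13 to 0.27 with the other probes, the highest with Kit. The 2 probes of Tpsb2 correlated with each other at only 0.03 (permutation adjusted p = 0.949), from -0.25 in T10R1 to 0.59 in T10R42, so the probes ordered the hearts differently.

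**Figure D4:**
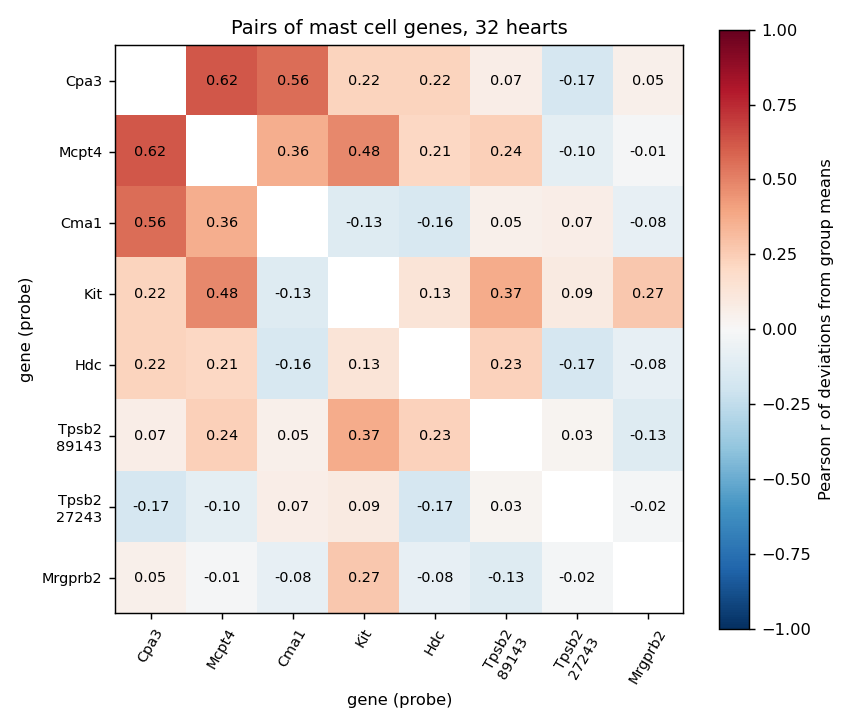
Pearson r between the 8 probes of the tested mast cell genes over 32 hearts, computed on deviations from the group means; the Tpsb2 probes are named by the end of their identifiers, and the diagonal is blank. Cpa3 with Mcpt4 (0.62) and with Cma1 (0.56) are the strongest pairs, and the Tpsb2 probes correlate at 0.03.

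The genes whose deviations most resembled the mean of Cma1, Mcpt4, Tpsb2 and Cpa3 were 1700096K18Rik (r = 0.673), Mtfr1 (0.672), H2bc21 (0.671), Retnla (0.649), Adam25 (0.647), Rspo1 (0.644), Npepl1 (0.627), Tapbpl (0.627), Efemp1 (0.623) and Inca1 (0.612), over 32 hearts. For Mrgprb2 they were H2-M10.2 (0.62), Zfp141 (0.604), Gm13272 (0.579), Speer2 (0.546) and E2f8 (0.545). H2-M10.2 was well above background on 8 of 32 arrays, Speer2 on 10 and Zfp141 on 14, so that for these, and for Mrgprb2 itself, most values were not well above background. All are the highest of the genes tested with an official symbol, apart from the genes they were set against, and are given as a description. The mean of 4 genes includes the brighter Tpsb2 probe, which had an r of -0.17 with Cpa3, -0.10 with Mcpt4 and 0.07 with Cma1. It is therefore not a profile that all 4 shared.

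Beyond the 8 genes, 60 further genes of mast cell biology were listed by role, of which 50 were tested. In T5R1, 8 of the 50 were past the threshold higher and 3 lower, beside 5.29% and 8.42% of all genes. The higher ones were, from IgE receptor signalling, Fcer1g (0.60), the signalling chain shared by Fc receptors, Fyn (0.36), Lat2 (0.76) and Plcg2 (0.47). The others were Il3ra (0.66), a chain of the interleukin-3 receptor, Hpgds (1.71), which makes prostaglandin D2, Tslp (0.84), an epithelial cytokine, and Ace (0.58), the angiotensin-converting enzyme.

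Of these, Hpgds was dim, well above background on 14 of 32 arrays. With normexp the differences were 0.27 for Hpgds, 0.24 for Lat2 and 0.25 for Tslp, none past the threshold. Many of them are also expressed by other myeloid cells. In the same comparison 5 of 6 macrophage markers were past the threshold higher, at mean levels of 0.48 to 1.12 in stressed hearts and 0.07 to 0.28 in controls, as were 3 of 4 neutrophil markers, at -0.44 to 1.46 and -1.74 to -0.67. Their part in the differences of Kit or of these genes was not tested. The genes past the threshold lower in T5R1 were the transcription factors Gata2 (-0.47) and Mitf (-0.46), which mast cells need and other cells also use, and Alox5 (-0.42), which starts leukotriene synthesis.

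Outside T5R1, 1 of these 50 genes passed, in T10R1 and in the higher direction, beside 0.776% of all genes, and a single gene does not set the list apart. Ace, which forms angiotensin II by a route separate from chymase, rose in T10R1 by 0.58 ± 0.11 (limma adjusted p = 0.00641), and in 17 of 18 other settings it stayed past the threshold, with a highest adjusted p of 0.155 by limma when only the T10R1 arrays were fitted. None passed in T5R10 (4 at an unadjusted p below 0.05 by limma) or in T10R42 (5). The nearest in T10R42 were Tslp, at 0.71 (limma adjusted p = 0.0554), and Hrh3, a histamine receptor, at -0.50 (adjusted p = 0.0665). Mrgprb1, a relative of Mrgprb2, had differences of -0.25, 0.03, 0.12 and -0.14 in T5R1, T5R10, T10R1 and T10R42. Among the other granule proteases, Ctsg was well above background on 30 arrays, Tpsg1 on 22, Mcpt2 on 7, Mcpt1 and Mcpt9 on 5 each and Tpsab1 on 0. Of the basophil markers, Prss34 was well above background on 30 arrays and was tested, Cd200r3 on 6 and Mcpt8 on 0.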

How the data were processed

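The deposited intensity values came from Feature Extraction (Agilent, version 10.7.3.1, per the file headers), which subtracted background and spatial trends. The deposited files also hold other values, flags of 0 or 1 for spots well above background, saturated or outlying. The authors' deposited value table holds log2 values; its columns followed the log2 mean signal without background subtraction, quantile normalised within each slide, and it served as an alternative. Column medians were 5.854 for T10R1, 6.027 for T10R42, 6.259 for T5R10 and 6.223 to 6.224 for T5R1, so the values were not centred.

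Control spots (3671 of 62976) and outlier values (5470) were left out. Values were log2 processed signal minus the 75th percentile of each array. Probes well above background on 3 of 4 arrays of a group, and missing on at most 4 arrays, were kept (38819), with the brightest per gene. limma 3.58.1 in R 4.3.3 fitted 8 group means over 32 arrays (24 residual and 2.28 prior degrees of freedom); tests were two-sided, and 4 mice per group limit the precision. Pairs were tested in Python 3.11.15 by permutation within groups. Bounds against background were under 1-fold and are not given. Scripts were tested on simulated data.

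All 8 genes and their probes are described; from the other lists, genes past the threshold and some with the smallest p of their list are named, with Mrgprb1, Kitl and untested dim genes named after their values were seen, and the genes most alike by r. The members and lists were chosen with earlier results of these data known. Alternatives were quantile normalisation, normexp (offset 50), the authors' table, filters, mean of probes, fewer arrays in the fit, slide row, replicate block and each heart left out.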

Additional observations from a re-analysis of the deposited data

How the results depend on the processing

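Outside T5R1 the stress effects on the 7 genes and their T10R42 minus T10R1 differences (28 values) were recomputed 556 times under the alternatives: none passed the threshold (lowest limma adjusted p 0.145), and 32 changed sign, each by no more than its SE. The T5R10 values of Mrgprb2 among these are a description. In T5R1, from which the genes were chosen, Mrgprb2 ran from -2.27 to -0.44. It was not tested where a probe had to be above background on all arrays.

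Counts over all genes moved more. T5R10 had 21 calls, and 86 with quantile normalisation, 33 in the authors' table, 9 with no filter, 39 with all arrays above background, 9 with slide row, and 1084 without the arrays marked for evaluation. T5R10 had 0 calls with only its own arrays (limma, 2559 at an unadjusted p below 0.05) and 0 with the replicate block (limma, 4064). T10R1 had 313, and 185 with quantile normalisation, 181 with no filter and 4 with its own arrays. T10R42 had 248, and 376 with quantile normalisation, 98 with normexp, 129 in the authors' table, 120 with no filter, 426 with all arrays above background, 511 without the marked arrays and 0 with its own arrays (limma, 5153 at an unadjusted p below 0.05). The difference had 1143, and 543, 687 and 463 with quantile normalisation, the authors' table and no filter. In T5R1 61.4% of calls were lower, 36.5% with quantile normalisation and 38.7% in the authors' table. The median of all genes in T5R1 was -0.119.

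Leaving out 1 heart gave 2181 to 3834 calls in T5R1, 5 to 601 in T5R10, 86 to 298 in T10R1, 34 to 1447 in T10R42, 306 to 2096 for the difference and 0 to 2 pairs. Same-numbered hearts correlated at -0.266 to 0.213, so the numbers did not pair them; the replicate block gave 3493, 212 and 250 calls in T5R1, T10R1 and T10R42 and 965 for the difference. Signal over background limits Mrgprb2 and Ms4a2. Pairs kept a count of 2 with quantile normalisation, normexp and, chosen after seeing the data, without the marked arrays.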
